A study of Saccharomyces cerevisiae with 72 samples.

Results

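The 10 genes described here are those that an **a**/α diploid yeast is known to keep off, or to express in only 1 of the mating types, and they were taken by their identifiers from the 6660 genes of the table. They comprise 7 haploid-specific genes (*GPA1*, YHR005C; *STE4*, YOR212W; *STE18*, YJR086W; *STE5*, YDR103W; *FUS3*, YBL016W; *FAR1*, YJL157C; *HO*, YDL227C), 2 **a**-specific genes (*STE2*, YFL026W; *MFA1*, YDR461W) and 1 α-specific gene (*STE3*, YKL178C). All 10 had a value in every condition and so belong to the 6496 genes that could be compared. The study asked how loss of *KAR4*, whose product acts in mating with the transcription factor Ste12p and in meiosis with the mRNA methylation machinery, alters the meiotic transcriptome of *Saccharomyces cerevisiae* diploids of S288c. Cells were moved through acetate medium into sporulation medium, and polyA RNA was sequenced at 0, 2, 4, 6, 8 and 12 h.

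There were 6 strains: *kar4*Δ/Δ and wild type, each with Pzev-*IME1* and Pzev-*RIM4* together (dual Pzev), with Pzev-*IME1* alone, or with endogenous promoters and no overexpression. Pzev is a promoter driven by the β-estradiol-responsive activator Z3EV, and cultures for overexpression received 1 μM β-estradiol on transfer to sporulation medium. *IME1* encodes the activator that starts meiosis, and *RIM4* encodes an RNA-binding regulator of translation. The strain list of the study gives Z3EV on the *ACT1* promoter in 1 or 2 copies, also in some strains with endogenous promoters, and it names *URA3*, *KANMX*, *LEU2* or *HPHMX* as the markers that replace *KAR4*. It does not say which of the listed strains were sequenced, so effects of markers, of Z3EV dosage or of β-estradiol and effects of genotype or promoter cannot be told apart. Each of the 36 conditions had 2 biological replicates (72 libraries). The deposited values are the authors' log2 fold changes relative to the 0 h culture of wild type with endogenous promoters, with both replicates already combined.

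A value of 0 therefore means the level of that 1 condition, 1 means 2-fold higher and -1 means 2-fold lower. The values carry no replicate error, counts or p-values, depth is unknown, and no difference could be tested. Strains were compared by subtracting 1 log2 fold change from the other, which removes the common baseline if fold changes are additive, and a size of 1 or more was counted. The table holds no absolute levels, so neither the levels of different genes nor whether a gene was off in these diploids could be checked. In cultures as a whole, fewer cells with a transcript and less transcript per cell cannot be told apart.

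Libraries labelled *kar4*Δ/Δ had *KAR4* lower than wild type by a log2 difference of -8.68 to -3.97, with 1 exception: at 0 h with endogenous promoters the column labelled *kar4*Δ/Δ had *KAR4* at -0.55. Directions given for genotype at 0 h in that background therefore use a column whose label the *KAR4* value contradicts. In wild type in the dual Pzev background *IME1* stood at 3.03 and *RIM4* at 3.21 already at 0 h, against 1.41 and 0.23 in *kar4*Δ/Δ. The middle 90% of genes spanned 2.05 to 6.30 log2 units in dual Pzev columns, 2.19 to 3.44 with Pzev-*IME1* and 1.42 to 2.04 with endogenous promoters. Counts past 2-fold are therefore set beside the share of all genes past the same size.

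In **a**/α diploids the **a**1-α2 repressor, made of 1 subunit from each mating-type allele, binds operators upstream of haploid-specific genes. α2 with Mcm1p represses **a**-specific genes, and α-specific genes stay off without the activator α1. Haploid cells use the products to mate. A pheromone binds a receptor of the opposite cell type, the receptor releases the Gβγ dimer from Gα, and a scaffolded MAP kinase cascade activates Ste12p and arrests the cell cycle in G1.

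Operators are shown first, because binding of **a**1-α2 is what the haploid-specific genes are known to share. The bases before each start codon were read from the R64 assembly of S288c, which is also called sacCer3. The operator was searched as the half-sites TCNTGT, with A or G as N, and ACATCA separated by 8 bases, on both strands. Within 500 bases it was found without mismatch before 1 of 6002 protein-coding genes, *HO* (0.0167% of promoters). Allowing 1 mismatch gave 30 genes (0.500% of promoters), among them *HO*, *GPA1* and *STE5*. Allowing 2 mismatches gave 402 genes (6.70%) and no further member. Within 1500 bases *HO* had 4 sites without mismatch, and 2 of the 6002 genes had any. With 2 mismatches allowed there, *STE4*, *STE18*, *FUS3* and *FAR1* still had no match to this fixed pattern. Whether the pattern was itself defined from sites before *HO* was not checked, so these shares describe the sequence only. The half-sites are in capitals, and each sequence is given 5′ to 3′ on its own strand.
*HO*, chrIV:48396-48415, minus strand, 384 to 365 bases before the start codon: TCATGTccacattaACATCA
*HO*, chrIV:48436-48455, minus strand, 424 to 405 bases before the start codon: TCATGTtattatttACATCA
*HO*, chrIV:48601-48620, plus strand, 589 to 570 bases before the start codon: TCGTGTatttagttACATCA
*HO*, chrIV:48761-48780, plus strand, 749 to 730 bases before the start codon: TCATGTattcattcACATCA
*GPA1*, chrVIII:115256-115275, minus strand, 358 to 339 bases before the start codon, 1 mismatch: GCATGTtaaaaagcACATCA
*STE5*, chrIV:658160-658179, plus strand, 190 to 171 bases before the start codon, 1 mismatch: TCATGTacttttctGCATCA

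Other short elements were counted in the same 500 bases on both strands. The pheromone response element TGAAACA, bound by Ste12p, was present before *STE4* and *FUS3* (2 matches each), *STE2* (2), *STE18* (1) and *MFA1* (1), thus before 5 of the 10 genes, and before 12.0% of all promoters. The Ume6p core GGCGGC of early meiotic genes was present before none of the 10 and before 9.56% of all. The core of the middle sporulation element bound by Ndt80p (CACAAAA, added after values had been seen) was present before *STE18* and *STE3* (1 match each), and before 12.5% of all. These matches describe the sequence only.

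The genes for Gγ, Gβ and the scaffold gave the highest values of the 10. *STE18* (chromosome X, 586068 to 586400) encodes Gγ. In the dual Pzev background it stood at -0.53, -0.29, -0.30, 0.60, 0.47 and 0.95 from 0 to 12 h in *kar4*Δ/Δ, against 0.02, 0.16, 1.71, 3.55, 5.63 and 6.76 in wild type. The genotypes differed by -0.55 and -0.45 at 0 and 2 h and lay further apart at every later time. The log2 difference was -2.01 at 4 h, -2.95 at 6 h, -5.16 at 8 h and -5.80 (*kar4*Δ/Δ lower by 55.8-fold) at 12 h, where 1.15% of all genes had a lower one.

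*STE4* (chromosome XV, 742910 to 744181) encodes Gβ. In the dual Pzev background its values were -0.12, 0.10, 0.55, 0.55, 0.61 and 0.57 in *kar4*Δ/Δ, against 0.22, 0.38, 0.71, 1.88, 3.23 and 4.01 in wild type. The course in *kar4*Δ/Δ stayed within 0.73 log2 units, while that of wild type climbed at each time. The difference was -1.33 at 6 h, -2.62 at 8 h and -3.43 (*kar4*Δ/Δ lower by 10.8-fold) at 12 h.

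*STE5* (chromosome IV, 658350 to 661103) encodes the scaffold on which the kinases of the cascade assemble. Its values were -0.19, 0.50, 0.53, -0.08, 0.04 and 1.19 in *kar4*Δ/Δ in the dual Pzev background, against -0.21, 0.08, 0.74, 1.43, 2.62 and 3.43 in wild type. The difference was -1.51 at 6 h, -2.59 at 8 h and -2.24 at 12 h, where 9.93% of all genes had a lower one. As in *STE18* and *STE4*, both genotypes were close together through 2 h, and the gap opened as the wild type value increased.

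*GPA1* (chromosome VIII, 113499 to 114917), which encodes Gα, the partner of these subunits, did not share their course. Its values in the dual Pzev background were -0.55, -0.69, -0.25, -0.27, 0.13 and -0.37 in *kar4*Δ/Δ, against -0.09, -0.02, -0.24, -0.68, -0.85 and 0.23 in wild type. Over all 35 conditions it ranged from -0.85 to 0.23, the narrowest range of the 10 genes and never 2-fold from the baseline. The largest difference between genotypes was 0.99 at 8 h in the dual Pzev background, and that at 12 h was -0.60.

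**Figure D1:**
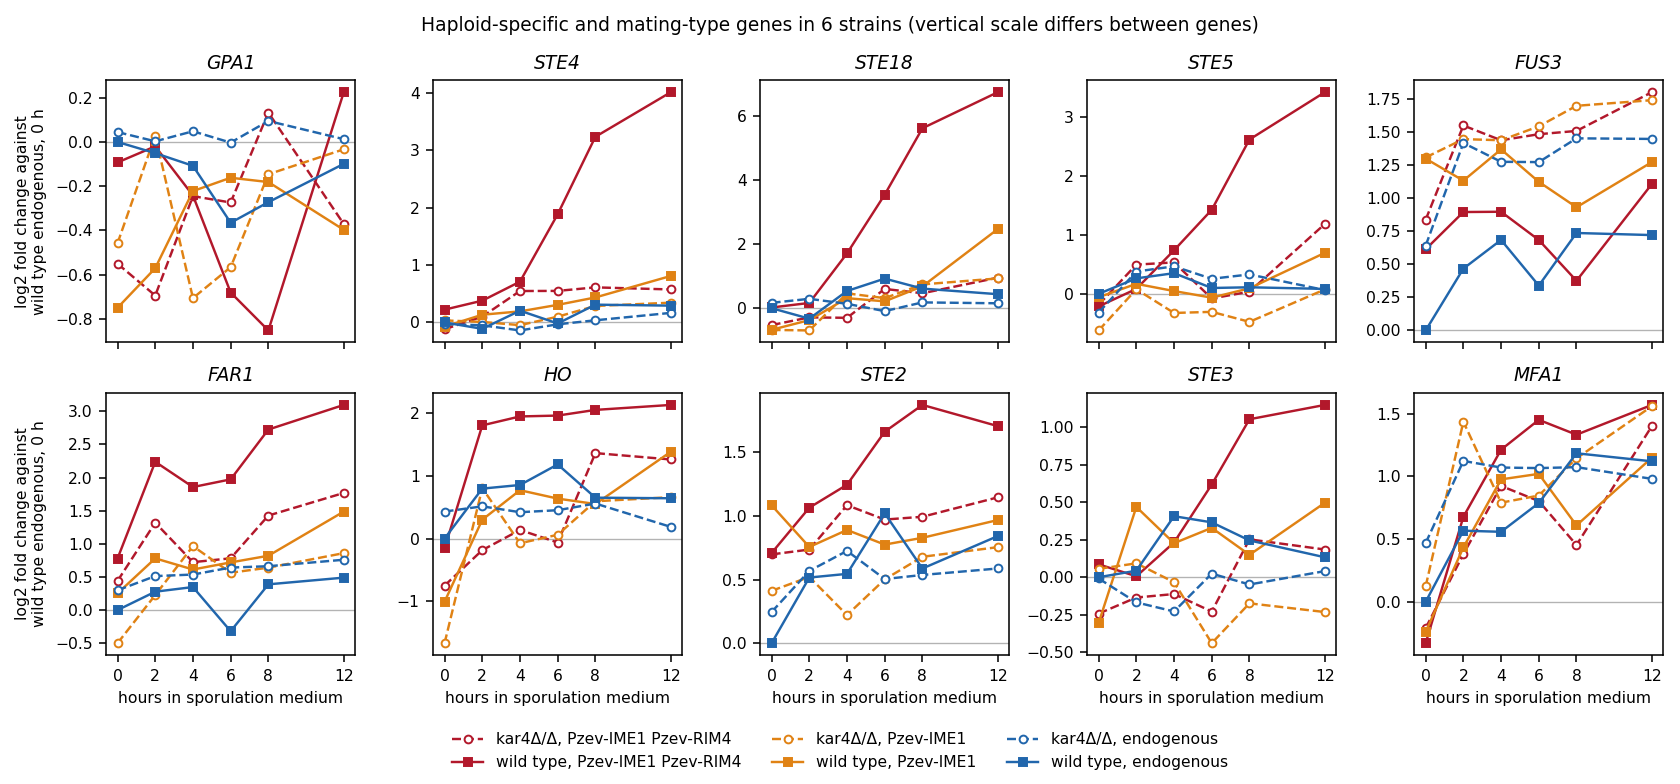
Authors' log2 fold change of each of the 10 genes (vertical axes, each gene on its own scale) against hours in sporulation medium, for *kar4*Δ/Δ (dashed, open circles) and wild type (solid, filled squares) in 3 promoter backgrounds (colors), 1 value per condition without error bars. *STE18*, *STE4* and *STE5* reach 6.76, 4.01 and 3.43 at 12 h in wild type in the dual Pzev background, and *GPA1* stays between -0.85 and 0.23 throughout.

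The gene for the cyclin-dependent kinase inhibitor of G1 arrest, *FAR1* (chromosome X, 123836 to 126328), followed an earlier course. In the dual Pzev background it was at 0.44, 1.32, 0.72, 0.78, 1.43 and 1.77 in *kar4*Δ/Δ, against 0.78, 2.24, 1.86, 1.97, 2.73 and 3.10 in wild type. Both genotypes had a first high at 2 h and their highest value at 12 h. The difference was -0.92 at 2 h and between -1.33 and -1.13 from 4 to 12 h. At 12 h 19.6% of all genes had a lower one. With endogenous promoters *FAR1* was higher in *kar4*Δ/Δ at every time, by 0.19 to 0.96.

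*HO* (chromosome IV, 46271 to 48031) encodes the endonuclease that starts mating-type switching, and laboratory strains of S288c carry a defective allele of it. In the dual Pzev background it was at -0.75, -0.18, 0.14, -0.06, 1.36 and 1.26 in *kar4*Δ/Δ, against -0.16, 1.81, 1.95, 1.96, 2.05 and 2.13 in wild type. Wild type had reached its plateau at 2 h, and *kar4*Δ/Δ was near the baseline until 6 h and past 1 from 8 h. The differences were -1.99 at 2 h, -1.81 at 4 h, -2.02 at 6 h, -0.69 at 8 h and -0.87 at 12 h. Of all genes, 0.939% had a lower one at 2 h and 27.7% at 12 h. At 0 h with Pzev-*IME1* alone *HO* was at -1.67 in *kar4*Δ/Δ and -1.01 in wild type, the lowest values of any of the 10 genes.

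Of the regulators of *HO*, *SWI4*, the DNA-binding subunit of the factor that activates it in late G1, was lower in *kar4*Δ/Δ in the dual Pzev background at all 6 times (differences between -1.91 and -1.05). *SWI5*, its earlier activator in the cell cycle, differed by 2.12 at 2 h and -0.70 at 6 h. *ASH1*, its repressor in daughter cells, differed by 0.61 and 1.03, and *SWI6*, the partner of Swi4p, by -0.18 and 0.07 at those times. Whether these regulators have a part in the values of *HO* was not tested.

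*FUS3* (chromosome II, 192451 to 193512) encodes the MAP kinase of the mating cascade, and its pattern ran the other way. With endogenous promoters it was at 0.64, 1.42, 1.27, 1.27, 1.45 and 1.45 in *kar4*Δ/Δ, against 0, 0.47, 0.68, 0.34, 0.74 and 0.72 in wild type. With Pzev-*IME1* it was at 1.31, 1.44, 1.44, 1.54, 1.70 and 1.74 in *kar4*Δ/Δ, against 1.30, 1.13, 1.37, 1.12, 0.93 and 1.27 in wild type. In the dual Pzev background it was at 0.84, 1.55, 1.44, 1.48, 1.51 and 1.80 in *kar4*Δ/Δ, against 0.61, 0.89, 0.90, 0.68, 0.38 and 1.11 in wild type. From 2 h on all 15 values of *kar4*Δ/Δ were at least 1.27, and every one exceeded that of its wild type counterpart.

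*FUS3* was thus higher in *kar4*Δ/Δ in 18 of 18 pairs of conditions, and in 17 of 17 without the pair at 0 h with endogenous promoters. The log2 difference ranged from 0.01 to 1.13, with a median of 0.67 with dual Pzev, 0.37 with Pzev-*IME1* and 0.72 with endogenous promoters. Of all genes, 11 (0.169%) were higher in *kar4*Δ/Δ in all 18 pairs. With endogenous promoters 96.5% to 97.8% of genes had a lower difference than *FUS3* from 2 to 12 h. The share was 57.6% to 97.3% with Pzev-*IME1* and 72.9% to 90.2% with dual Pzev over the same times. The 6 times of a background come from the same strains and are not independent. After quantile normalization of the columns 17 of 18 differences were positive, the exception being -0.14 with Pzev-*IME1* at 4 h, and the median with endogenous promoters was 1.48.

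**Figure D2:**
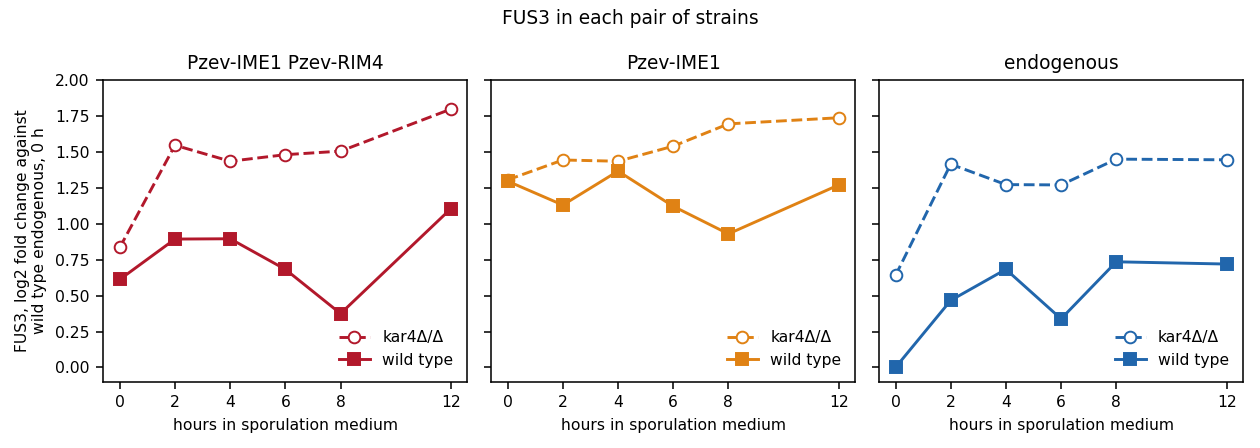
*FUS3*, authors' log2 fold change against the common baseline (vertical axis), by hours in sporulation medium, for *kar4*Δ/Δ (dashed, open circles) and wild type (solid, filled squares), 1 panel per promoter background and 1 value per condition. *kar4*Δ/Δ lies above wild type in all 18 pairs, by 0.01 to 1.13.

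The mating-type-specific genes encode the pheromone receptors and a pheromone. *STE2* (chromosome VI, 82580 to 83875), the receptor for α-factor, was at 0.70, 0.74, 1.09, 0.97, 0.99 and 1.15 in *kar4*Δ/Δ in the dual Pzev background, against 0.71, 1.07, 1.25, 1.66, 1.87 and 1.71 in wild type. It was above the baseline in all 35 other conditions, between 0.22 and 1.87. Its largest difference between genotypes was -0.88, at 8 h in the dual Pzev background.

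The receptor for **a**-factor, *STE3* (chromosome XI, 113215 to 114627), was at -0.24, -0.14, -0.11, -0.23, 0.25 and 0.19 in *kar4*Δ/Δ in the dual Pzev background, against 0.09, 0.01, 0.23, 0.62, 1.05 and 1.15 in wild type. It was lower in *kar4*Δ/Δ in 17 of 18 pairs, the exception being 0.36 at 0 h with Pzev-*IME1*. The share of all genes lower that often was not counted. No difference reached 2-fold as deposited, the largest being -0.97, and after quantile normalization that at 4 h with endogenous promoters was -1.05.

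*MFA1* (chromosome IV, 1385176 to 1385286), 1 of the genes for the precursor of **a**-factor, was at -0.21, 0.38, 0.92, 0.80, 0.45 and 1.40 in *kar4*Δ/Δ in the dual Pzev background, against -0.33, 0.68, 1.21, 1.45, 1.33 and 1.57 in wild type. All 6 strains had *MFA1* higher at 12 h than at 0 h, and values at 12 h lay between 0.98 and 1.57. The single 2-fold difference was 1.00 at 2 h with Pzev-*IME1*, where the values were 1.44 in *kar4*Δ/Δ and 0.43 in wild type.

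Counted together in the dual Pzev background, *HO* was at 2 h the single gene of the 10 to lie 2-fold or more below wild type in *kar4*Δ/Δ (6.31% of all genes did), and *STE18*, *FAR1* and *HO* did at 4 h (6.40% of all genes). The count was 5 of 10 at 6 h (11.1% of all genes), when *STE4* and *STE5* joined, and 4 of 10 at 8 h (17.6%) and at 12 h (25.2%), without *HO*. In the higher direction it was 1 of 10 at 8 h, *FUS3* (12.8% of all genes), and 0 of 10 at 12 h (17.9%). Over the 6 times together, 5 of 10 were 2-fold lower at least once and 1 of 10 was 2-fold higher, against 35% and 29.9% of all genes. The median difference over the 10 genes was -1.02 at 6 h, -0.88 at 8 h and -0.92 at 12 h.

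Sizes in the dual Pzev background depended on the scale of the columns. After quantile normalization, 2 of 10 genes were 2-fold lower at 12 h, against 8.02% of all genes, with *STE18* at -1.93 and *STE4* at -1.14. *STE5* was then at -0.49, *FAR1* at 0.01 and *HO* at 0.05. The early differences of *HO* stayed past 2-fold (-1.57, -1.15 and -1.20 at 2, 4 and 6 h).

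**Figure D3:**
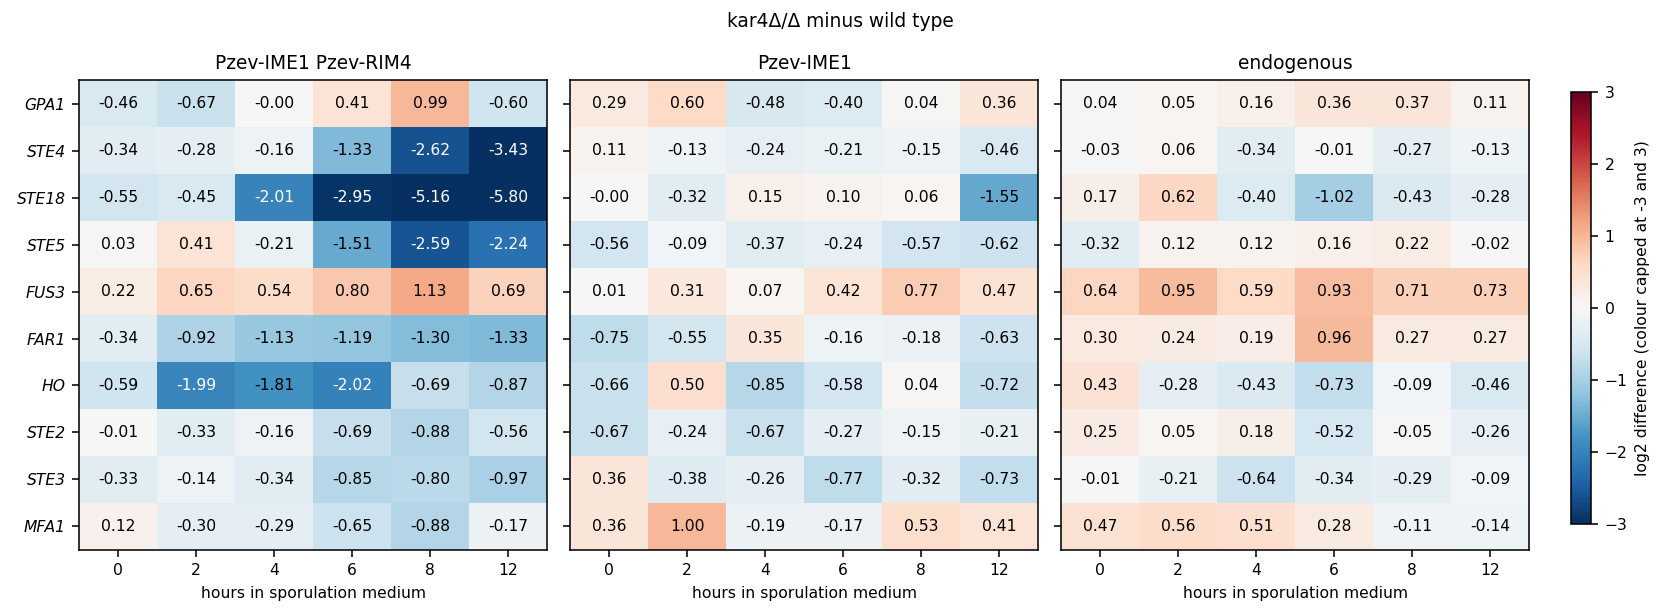
Log2 value of *kar4*Δ/Δ minus that of wild type of each gene (rows) by hours in sporulation medium (columns), 1 panel per promoter background, with the value printed in each cell. Blue marks lower and red higher in *kar4*Δ/Δ, with colors capped at both ends. The lowest values are those of *STE18* in the dual Pzev background at 8 and 12 h (-5.16 and -5.80), while the *FUS3* row has no negative value.

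**Figure D4:**
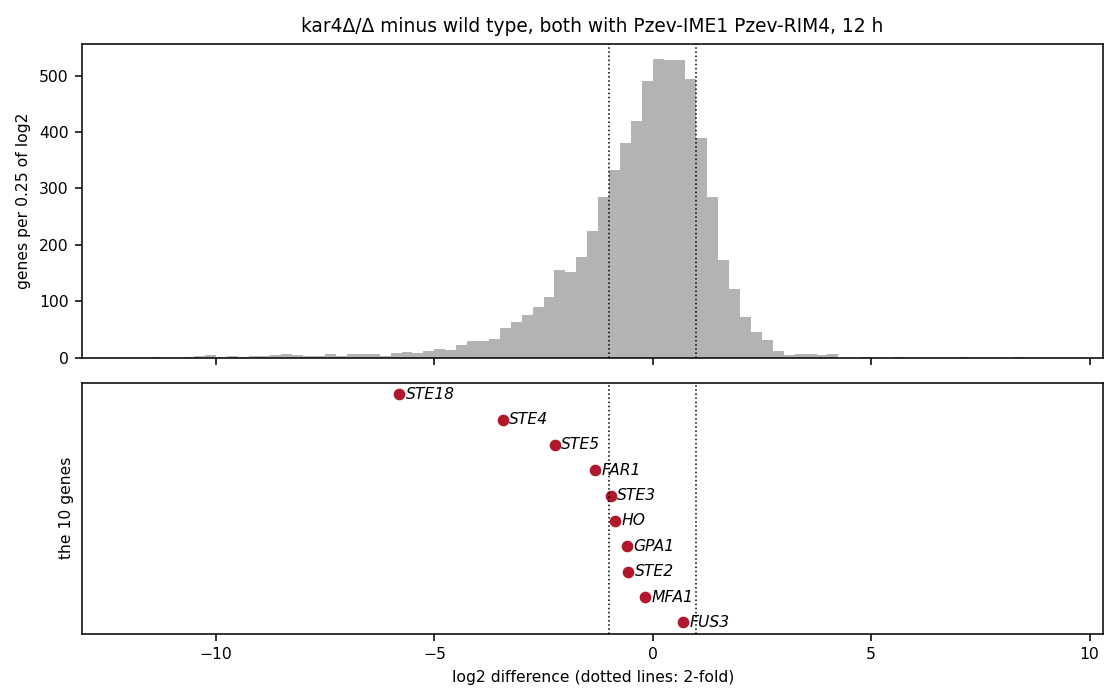
Log2 value of *kar4*Δ/Δ minus that of wild type in the dual Pzev background at 12 h, as a histogram over 6496 genes (top, genes per bin) and for each of the 10 genes (bottom, points in order of value). Dotted lines mark 2-fold, *STE18*, *STE4*, *STE5* and *FAR1* lie left of the lower one, and no gene of the 10 lies right of the upper one.

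The other backgrounds held few differences of that size. With Pzev-*IME1* 1 of 10 genes, *STE18*, lay 2-fold below wild type at 12 h (5.37% of all genes), at 0.93 in *kar4*Δ/Δ and 2.48 in wild type. Over the 6 times 1 of 10 was 2-fold lower and 1 of 10 (*MFA1*) higher at least once, against 14.2% and 14.5% of all genes. With endogenous promoters the only such difference was *STE18* at 6 h (2.88% of all genes), at -0.09 in *kar4*Δ/Δ and 0.93 in wild type, a difference of -1.02. Over all times there, 1 of 10 was lower and 0 of 10 were higher, against 6.54% and 5.94% of all genes. After quantile normalization *FUS3* was past 2-fold higher there at all 6 times (1.20 to 1.73) and *FAR1* at 6 h (1.54), and *STE3* joined *STE18* among those lower.

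The courses were next compared with the baseline. At 12 h in the dual Pzev background, 6 of 10 genes in *kar4*Δ/Δ and 9 of 10 in wild type were at least 2-fold above it, against 17.2% and 27.8% of all genes. The exceptions were *GPA1*, *STE4*, *STE18* and *STE3* in *kar4*Δ/Δ, and *GPA1* in wild type. With Pzev-*IME1* the counts were 2 of 10 in *kar4*Δ/Δ (12.3% of all genes) and 5 of 10 in wild type (14.4%). With endogenous promoters they were 1 of 10, *FUS3*, in *kar4*Δ/Δ (3.88%) and 1 of 10, *MFA1*, in wild type (6.33%). All these counts share the baseline condition, and after quantile normalization those in the dual Pzev background were 2 and 4.

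Courses were also counted from 2 h in place of the common baseline. In *kar4*Δ/Δ in the dual Pzev background, *STE18*, *HO* and *MFA1* at 12 h exceeded their own 2 h value 2-fold (3 of 10, against 8.96% of all genes), by 1.24, 1.45 and 1.02. In wild type *STE18*, *STE4*, *STE5* and *STE3* did so (4 of 10, 23.8% of all genes), by 6.59, 3.63, 3.34 and 1.14, and *FAR1* and *HO* increased by only 0.86 and 0.33 over the same span. Counted from 4 h, *FAR1* passed 2-fold in *kar4*Δ/Δ (1.04) and in wild type (1.24). *MFA1* in *kar4*Δ/Δ (0.48) and *STE3* in wild type (0.92) then did not. With Pzev-*IME1* it was *STE18* (1.63) in *kar4*Δ/Δ (6.34% of all genes), and *STE18* (2.85) and *HO* (1.08) in wild type (7.11%). No member reached 2-fold with endogenous promoters as deposited, in *kar4*Δ/Δ (0.477% of all genes) or in wild type (3.36%). After quantile normalization *STE18* did so there in wild type (1.13).

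In wild type the dual Pzev strain was compared with that carrying Pzev-*IME1* alone. *RIM4* itself was higher in the dual Pzev strain at 2 h (4.55 against 2.63) but lower at 12 h (3.35 against 3.72). *IME1* was also lower there at 12 h (1.93 against 4.01). The dual Pzev strain exceeded that with Pzev-*IME1* alone at 12 h by 4.28 for *STE18*, 3.20 for *STE4*, 2.73 for *STE5* and 1.61 for *FAR1*, which made 4 of 10 genes (24% of all genes). At 2 h the 2-fold differences were *HO* (1.51) and *FAR1* (1.46). In *kar4*Δ/Δ 1 of 10 genes, *STE5* at 1.11, was 2-fold higher at 12 h (6.23% of all genes), and it was at 0.73 after quantile normalization. At 2 h in *kar4*Δ/Δ *FAR1* was higher (1.09) and *MFA1* lower (-1.06). These were at 1.08 and -0.87 after quantile normalization. After quantile normalization 0 of 10 genes passed 2-fold in wild type at 12 h, 3 did at 8 h, and 1 did at each of 2 and 6 h. Pzev-*IME1* exceeded endogenous promoters in wild type at 12 h by 2-fold for *STE18* (2.04, and 10.8% of all genes). *FAR1* lay at that limit (0.997 as deposited and 1.01 after median centring). Already at 0 h these wild type strains differed by 1.30 for *FUS3*, 1.08 for *STE2* and -1.01 for *HO*. The *kar4*Δ/Δ strains then differed by -2.10 for *HO*. The share of all genes past 2-fold at 0 h was not counted.

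*NDT80*, which encodes the activator of middle meiotic genes, was at -0.14, 0.05, 0.00, -0.10, 0.34 and 1.27 in the dual Pzev background in *kar4*Δ/Δ, against -0.23, 0.55, 2.66, 4.18, 5.41 and 6.04 in wild type. Its difference at 12 h with Pzev-*IME1* was -1.89. The pattern nearest to that of *STE18* over the 35 conditions was that of *SPS22*, a middle sporulation gene (Pearson's r = 0.98), which reached 10.61 at 12 h in wild type in the dual Pzev background. The part of meiotic progression in the values of *STE18*, *STE4* and *STE5* was not tested.

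The nearest pattern outside the 10 genes was *ACF2* for *STE4* (r = 0.98), *YSP2* for *STE5* (0.96), *SRS2* for *FAR1* (0.96), *GID12* for *STE2* (0.94) and *VIK1* for *HO* (0.90). It was YKL177W, which the annotation used does not list, for *STE3* (0.91), and *MFA2*, the other **a**-factor gene, for *MFA1* (0.84). The identifier of YKL177W is next to that of *STE3* (YKL178C), and whether they share sequence was not checked. *GLE1* for *FUS3* (0.73) and *PSH1* for *GPA1* (0.72) were less alike. After quantile normalization another gene was nearest to *STE4*, *STE5*, *FUS3*, *STE2* and *MFA1*. Among the 10 themselves, *STE4* and *STE18* (0.95), *STE4* and *STE5* (0.91) and *STE18* and *STE5* (0.89) were most alike, and *STE4* and *STE5* gave 0.56 after quantile normalization. *FUS3* gave r between -0.46 and 0.21 with the others, and *GPA1* between -0.23 and 0.25. These coefficients are across conditions that share 1 baseline. *STE18*, *STE4* and *STE5* had their highest values at 12 h in wild type in the dual Pzev background. The coefficients were not recomputed without such columns.

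No gene of the annotation used overlaps any of the 10. That annotation holds 5986 of the deposited identifiers, so overlap with the others, YKL177W among them, was not checked. The strand setting of the authors' counting is not given, and transcripts that run past a gene's end cannot be assigned. *STE5* lies 69 bases from the convergent *SPO71*, needed for the spore membrane, which was at 0.29 in *kar4*Δ/Δ and 3.62 in wild type at 12 h in the dual Pzev background. On its other side YDR102C was at 0.64 in *kar4*Δ/Δ and 3.39 in wild type. *STE5* itself was at 1.19 and 3.43, and both neighbors rose with it in wild type. In *kar4*Δ/Δ *SPO71* stayed between -0.35 and 0.29. YDR102C was highest there at 2 h (1.12), where *STE5* was at 0.50. The part of these neighbors in the value of *STE5* was not tested. *CMI8*, 237 bases from *MFA1* on the opposite strand, was at -0.10 in *kar4*Δ/Δ and 4.27 in wild type, a wider gap than that of *MFA1*.

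The neighbors of *STE18* moved otherwise. *EMC2*, 94 bases away, was at -0.92 in *kar4*Δ/Δ and -0.73 in wild type, and *TMH11*, 630 bases away, at -1.60 and -1.50. Beside *STE4*, *SAS5* was at -1.65 in *kar4*Δ/Δ and -0.24 in wild type, and *MGM1* at 0.74 and 1.41. *CIS3*, next to *FAR1*, was at -3.48 in *kar4*Δ/Δ and 2.58 in wild type.

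**Figure D5:**
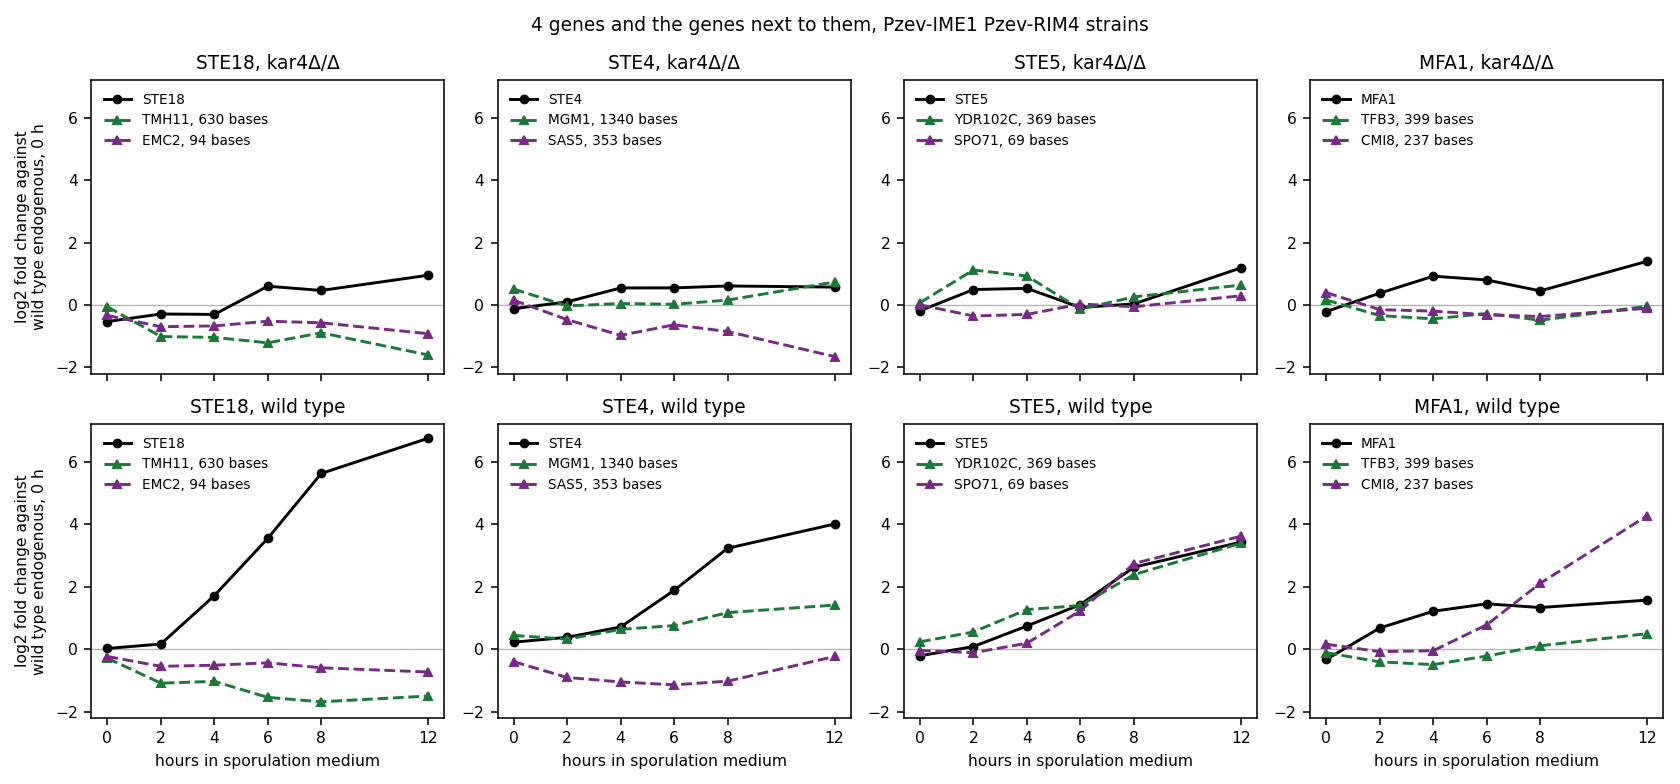
Authors' log2 fold change against the common baseline (vertical axis), by hours in sporulation medium, of *STE18*, *STE4*, *STE5* and *MFA1* (black) and of the annotated gene on each side (dashed, distance in bases in the key), for *kar4*Δ/Δ (top) and wild type (bottom) in the dual Pzev background. In wild type both neighbors of *STE5* run beside it to 3.39 and 3.62, whereas those of *STE18* stay below 0.

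Genes outside the 10 with the same known regulation gave a mixed picture at 12 h in the dual Pzev background, where 25.2% of all genes were 2-fold lower and 17.9% higher. Of 5 other **a**1-α2 repressed genes, 2 were 2-fold lower in *kar4*Δ/Δ, *NEJ1*, a factor of end joining (-4.17), and *AXL1*, a protease that matures **a**-factor (-1.76). The other 2 past that size were higher, *RME1*, the repressor of *IME1* (2.16), and *RDH54*, a recombination translocase (1.28). After quantile normalization *NEJ1* was at -0.89 and *AXL1* at -0.31, and *RME1* and *RDH54* stayed past 2-fold (1.21 and 1.67).

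Of 5 other **a**-specific genes 1 was 2-fold higher, *AGA2*, a subunit of the **a**-agglutinin (2.08), and 0 were 2-fold lower, so that the share higher was near the 17.9% of all genes. Of 3 other α-specific genes 2 were higher, *SAG1*, the α-agglutinin (1.86), and *MF(ALPHA)2*, an α-factor gene (1.71). *STE2*, *STE3* and *MFA1* had differences of -0.56, -0.97 and -0.17 there. Also lower by less than 2-fold were *MFA2* (2.05 in *kar4*Δ/Δ, 2.27 in wild type) and *MF(ALPHA)1*, an α-factor gene (1.54 and 2.12). *STE6*, *BAR1* and *ASG7* were higher by less than 2-fold. *AGA2* and *SAG1* stayed past 2-fold after quantile normalization (1.34 and 1.32), and *MF(ALPHA)2* was at 0.93. *STE2* and *MFA1* were then higher in *kar4*Δ/Δ (0.12 and 0.35), and *STE3* stayed lower (-0.32).

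The pheromone pathway genes listed as not restricted by cell type numbered 16, a grouping that these data could not check. Of them, 4 were 2-fold lower and 4 higher in *kar4*Δ/Δ at 12 h in the dual Pzev background, with a median difference of -0.14. The share lower was close to the 25.2% of all genes, and 17.9% of all genes were higher. The lowest was *DIG2*, an inhibitor of Ste12p (-3.28), and the highest were *PTP2*, a phosphatase (1.54), and *STE11*, the MAP kinase kinase kinase (1.36). After quantile normalization 0 of 16 passed 2-fold in either direction. *STE12* itself was higher in *kar4*Δ/Δ in 17 of 18 pairs, by up to 2.41 at 4 h in the dual Pzev background, and lower by 0.47 at 12 h there. *STE20*, a kinase of the cascade, was also higher in 17 pairs, and *BEM1*, a scaffold of polarity, in 16. The rest of the list was higher in 5 (*CDC24*) to 14 (*DIG1*) pairs. The share of all genes higher in 16 or 17 pairs was not counted.

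Of 9 genes that act when cells mate, 3 were lower and 3 higher at 12 h in the dual Pzev background (25.2% and 17.9% of all genes), and 0 and 1 after quantile normalization. *KAR3*, a kinesin of nuclear fusion (-2.47), and *FIG1*, a membrane protein of mating (-2.26), were lowest, and *AGA1*, the anchor of the **a**-agglutinin (1.83), and *KAR5*, needed for nuclear fusion (1.47), were highest. Of 8 genes that process pheromones 1 was lower, *STE14*, the carboxyl methyltransferase of **a**-factor (-1.05), and 0 were higher.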

How the data were processed

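Per the labels and the study's methods, the authors aligned paired-end reads to sacCer3 with BWA-MEM, made counts per gene with htseq-count and ran DESeq2 on the conditions. Versions, strand setting and any shrinkage are not given in the sources used here. The deposited values are the authors' log2 fold changes of 36 conditions, replicates combined, relative to the 0 h culture of wild type with endogenous promoters. Of 6660 genes, 164 lacked a value and were left out. Columns without a name were not used.

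Differences were taken by subtraction and counted at 2-fold over the 10 genes and over all 6496. No test was possible. The 10 genes and the lists were chosen with earlier results of these data known. Named beside them are each list's extremes, the nearest patterns, the next genes and 5 meiotic checks. One list extreme is not reported here. Alternatives were quantile normalization, median centring, a 4-fold size, protein-coding genes, 4 h for 2 h, 7 haploid-specific genes and other mismatch limits. Counting, normalization and motif search were tested on simulated data. Sites and coordinates are from RefSeq R64. The scripts ran on pandas 2.3.3, with numpy 2.4.6, in Python 3.11.15, and figures were drawn with matplotlib 3.10.9.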

Additional observations from a re-analysis of the deposited data

Results flagged for a closer look

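Some differences between genotypes went opposite ways in 2 promoter backgrounds at the same time, each by 0.5 or more on the log2 scale. Whether the backgrounds differ was not tested, since there is 1 combined value per condition. *FAR1* at 6 h was lower in *kar4*Δ/Δ in the dual Pzev background (-1.19) and higher with endogenous promoters (0.96), and *HO* at 2 h was lower with dual Pzev (-1.99) and higher with Pzev-*IME1* (0.50). *GPA1* at 2 h gave -0.67 with dual Pzev and 0.60 with Pzev-*IME1*, and *MFA1* at 8 h gave -0.88 and 0.53 in those backgrounds. After quantile normalization *GPA1* alone of these 4 kept 0.5 in both directions (-0.67 and 0.78). No single library could be examined, so outlying libraries would not be seen.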

How the results depend on the processing

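Quantile normalization gave these counts both over all genes and over protein-coding genes only. In the dual Pzev background, members 2-fold lower in *kar4*Δ/Δ then numbered 2 at each of 6, 8 and 12 h, against 5, 4 and 4 as deposited. With Pzev-*IME1* at 12 h the count was 0, against 1. Members 2-fold above the baseline at 12 h numbered 2 in *kar4*Δ/Δ and 4 in wild type, against 6 and 9, and those 2-fold higher in wild type in the dual Pzev background than with Pzev-*IME1* were 0, against 4. Those whose 12 h value exceeded the 2 h value 2-fold in *kar4*Δ/Δ in the dual Pzev background were 1, against 3. The median difference of the 10 genes at 12 h became -0.15 in the dual Pzev background (-0.92 as deposited) and -0.35 with Pzev-*IME1* (-0.54). Single genes that changed sign at 12 h in the dual Pzev background were *FAR1* (0.012), *HO* (0.054), *STE2* (0.12) and *MFA1* (0.35). The cause was not tested. A 4-fold size left 2 members lower at 6 h in the dual Pzev background, 0 lower with Pzev-*IME1* at 12 h and with endogenous promoters at 6 h, and 0 in *kar4*Δ/Δ and 5 in wild type above the baseline. It left 0 whose 12 h value in *kar4*Δ/Δ exceeded that at 2 h. The 7 haploid-specific genes alone had a median of -0.020 with endogenous promoters, against -0.11 for all 10. Median centring moved the genes higher with Pzev-*IME1* than with endogenous promoters in wild type at 12 h to 2, against 1, and 4 h in place of 2 h moved neither count by over 1.5 times. The genes counted did change with 4 h, as *FAR1* replaced *MFA1* in *kar4*Δ/Δ and *STE3* in wild type.

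No paired analysis was possible because the deposited columns combine both replicates, and leaving out a replicate was not possible for the same reason. Depth is unknown, and small differences between single conditions cannot be set against replicate error. The omission of the 0 h pair with endogenous promoters was chosen after seeing the data.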

Other observations

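Genes of the repressors and silencers that keep mating-type genes off were also measured, and 9 of 13 listed had values. At 12 h in the dual Pzev background 3 of the 9 were 2-fold lower in *kar4*Δ/Δ and 0 were higher (25.2% and 17.9% of all genes). *CYC8*, a subunit of the general corepressor recruited by α2, was at 1.56 in *kar4*Δ/Δ and 4.22 in wild type, whereas *TUP1*, its partner, was at 0.73 and 0.99. *SIR1* and *SIR4*, which silence the *HML* and *HMR* cassettes, were at 1.08 and 1.41 in *kar4*Δ/Δ, against 2.69 and 2.70 in wild type, and *SIR2* and *SIR3* differed by 0.34 and 0.50. After quantile normalization 0 of the 9 passed 2-fold. Reads of the identical *MATa* and *HMRA* copies cannot be told apart, and *HMRA1* stood at -1.06 in *kar4*Δ/Δ and -0.32 in wild type.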
